A study of Mus musculus with 7 samples.

Results

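The genes described here encode enzymes that attach a water-soluble group to foreign and endogenous compounds, and carriers that move organic ions across cell membranes. They were taken by annotation and not by level, as every protein-coding gene of the count table whose symbol starts with Ugt1a, Ugt2, Ugt3, Gsta, Gstm, Gstp, Gstt, Gsto, Gstk, Sult, Slco or Slc22a. The rule gave 101 of 43629 gene rows. Among them were 20 UDP-glucuronosyltransferases (Ugt), 21 glutathione transferases (Gst), 21 sulfotransferases (Sult), 14 organic anion transporters of the Slco family and 25 organic ion transporters of the Slc22a family. Another 7 rows with these prefixes had a different biotype and were left out.

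Ugt enzymes sit in the endoplasmic reticulum and transfer glucuronic acid to bilirubin, steroids and drugs, Gst enzymes couple glutathione to electrophiles, and cytosolic Sult enzymes transfer sulfate from the donor PAPS to phenols and steroids. Slco carriers take up bile acids, thyroid hormones and prostaglandins, and Slc22a carriers move organic cations, anions and carnitine. Liver, intestine and kidney are the organs known for these genes, and the visceral endoderm of the early embryo, which absorbs and transports nutrients before those organs form, shares part of their gene set.

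Gene counts came from 7 RNA-seq libraries in 3 groups, all derived from E14, a line of mouse embryonic stem (ES) cells of 129/Ola background. Undifferentiated Ago2-knockout cells, grown with 15% serum and LIF, are called KO ESC and have 3 libraries, 1 of line C4 and 2 of line 5-3 (5-3_1 and 5-3_2). Wild-type cells after 5 days of differentiation towards extra-embryonic endoderm (XEN), with all-trans retinoic acid at 0.1 µM, activin A at 10 ng/mL and 15% serum, are called WT XEN (libraries A and B). Knockout cells treated in the same way are called KO XEN (libraries C4 and 5-3). Ago2 encodes an Argonaute protein, which binds microRNAs and silences their targets. The labels do not say how Ago2 was disrupted, whether C4 and 5-3 are each a single clone, or whether a group's libraries are separate cultures, so p-values measure the spread between these libraries only. Undifferentiated wild-type cells are not used here, so in WT XEN against KO ESC genotype and differentiation cannot be told apart. The 3 comparisons share libraries with each other. In such bulk samples fewer cells of a type and less RNA per cell cannot be told apart.

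Library totals ran from 36427340 to 48650113 counts in KO ESC and WT XEN, and were 13941826 (C4) and 33389566 (5-3) in KO XEN. CPM values below are read counts divided by the library size after TMM scaling, in the usual unit, and are not corrected for gene length. Ago2 itself stood at 94.4 CPM across KO ESC C4, 9.37 in 5-3_1 and 9.65 in 5-3_2, at 394 and 432 CPM across WT XEN A and B, and at 122 (C4) and 9.94 (5-3) CPM across KO XEN, so the libraries labelled C4 retained more Ago2 transcript than those of 5-3. Summed over 16 markers of visceral and primitive endoderm, levels were 178 to 262 CPM across KO ESC, 16495 and 16040 across WT XEN, and 489 (C4) and 816 (5-3) across KO XEN, where Apoa2 was at 0 and 15 of the 16 markers were lower than in WT XEN. Summed over 12 fibroblast and mesenchyme markers, levels were 24.9 to 36.9 CPM across KO ESC, 1893 and 833 across WT XEN and 11082 and 13547 across KO XEN, with 9 markers higher and 2 lower in KO XEN than WT XEN. Of 10 hepatocyte markers, Serpina1a was at 0 in all libraries and Alb stayed below 0.2 CPM. This list shares Ttr with that of visceral and primitive endoderm. It summed to 124 and 106 CPM in WT XEN against 1.74 and 12.9 CPM in KO XEN. Summed over 10 ES cell markers, levels were 6253 to 6416 CPM across KO ESC, 922 and 1002 across WT XEN, and 70.9 and 97.6 across KO XEN, with 9 markers lower in KO XEN than WT XEN. Summed over 10 neural markers, they were 505 to 543, 93.0 and 61.3, and 543 and 470 CPM in the same order, with 5 of 8 tested higher in KO XEN than WT XEN and none lower. Summed over 10 parietal endoderm markers, levels were 1330 to 1684 CPM across KO ESC, 47290 and 78225 across WT XEN, and 10351 and 11768 across KO XEN. Of these markers 6 were lower and 1 higher in KO XEN than WT XEN, where 23.9% of all genes tested were lower and 22.3% higher. Against KO ESC 9 were higher and none lower in KO XEN, with 34.8% and 34.3% of all genes. The part of these differences in the results below was not tested.

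Of the 101 genes, 17 had 0 counts in all 7 libraries, 36 had counts but fell below the low-count filter, and 48 entered the test. Those at 0 were Ugt2a2, Ugt2a3, Ugt2b1, Ugt2b37, Sult1c1, Sult2a1, Sult2a2, Sult2a6, Sult2a7, Sult2a8, Sult3a1, Sult3a2, Slco1a1, Slco6c1, Slc22a19, Slc22a22 and Slc22a26. A gene was called when the Benjamini-Hochberg adjusted p of edgeR's quasi-likelihood test, over all 18426 genes tested, was below 0.05. In KO XEN against WT XEN 5 of the 48 were higher, 16 lower and 27 did not pass, where 22.3% of all genes tested were called higher and 23.9% lower. In KO XEN against KO ESC 20 were higher and 18 lower, with 34.8% and 34.3% of all genes. In WT XEN against KO ESC 24 were higher and 13 lower, with 32.2% and 30.3% of all genes. Some of the 48 passed the filter only through the group where they are high and so had to differ, and these counts are a description. The median log2 fold changes of the 48 were -0.95, 0.31 and 0.97 in these comparisons. With groups at 0 counts set to a floor of 3 counts, they were -0.71, 0.54 and 0.97. Those of all genes tested were 0, -0.075 and -0.026. The medians of the 48 include the genes that had to differ, so they too are a description. In KO XEN against WT XEN the number called higher fell to 3 without WT XEN B and to 3 without KO XEN 5-3, and in KO XEN against KO ESC it fell from 20 to 12 without KO XEN 5-3.

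The families differed in direction. The summed level of all 101 genes was 622 to 654 CPM across KO ESC, 1332 and 1225 CPM across WT XEN, and 452 and 638 CPM across KO XEN. Ugt genes summed to 0.096, 0.072 and 0.18 CPM across KO ESC, 43.8 and 133 across WT XEN, and 0.29 and 1.26 across KO XEN. Slco genes summed to 53.9, 24.6 and 26.1 CPM across KO ESC, 688 and 572 across WT XEN, and 98.7 and 216 across KO XEN. These families were high in WT XEN, and no library of another group reached its range. Slc22a genes summed to 23.4, 26.0 and 22.7 CPM across KO ESC, 83.8 and 68.8 across WT XEN, and 150 and 131 across KO XEN, which was the highest group. Gst genes summed to 494, 498 and 508 CPM across KO ESC, 475 and 399 across WT XEN, and 190 and 278 across KO XEN. Sult genes summed to 50.8, 93.0 and 97.7 CPM across KO ESC, 41.0 and 52.4 across WT XEN, and 12.8 and 12 across KO XEN. For Gst and Sult genes the KO XEN libraries were thus the lowest.

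**Figure D1:**
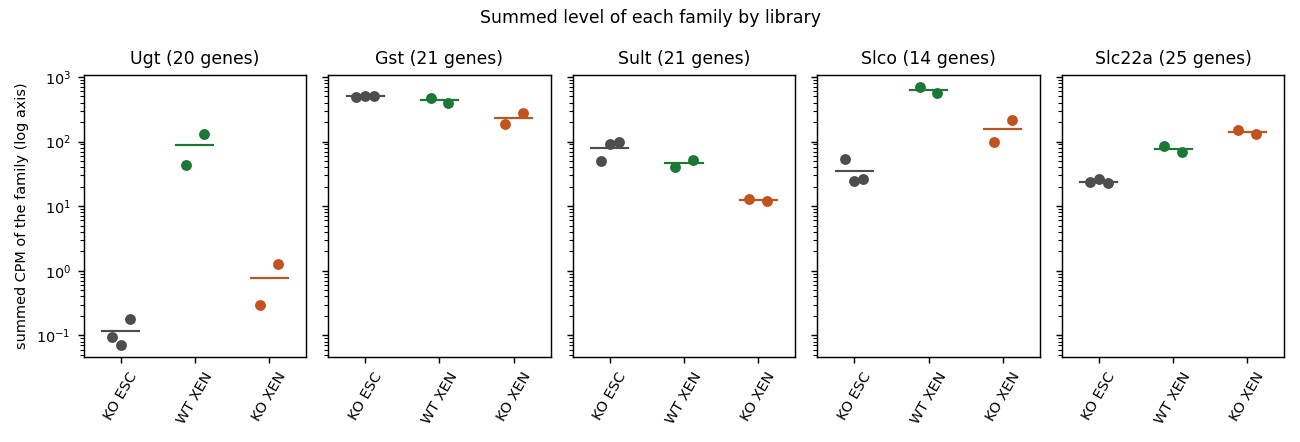
Summed CPM (log axis, common to the 5 panels) of each family in the 7 libraries; points are libraries and horizontal lines are group means. Ugt and Slco sums were highest in WT XEN, the Slc22a sum was highest in KO XEN (150 and 131 CPM), and the Gst and Sult sums were lowest in KO XEN.

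**Figure D2:**
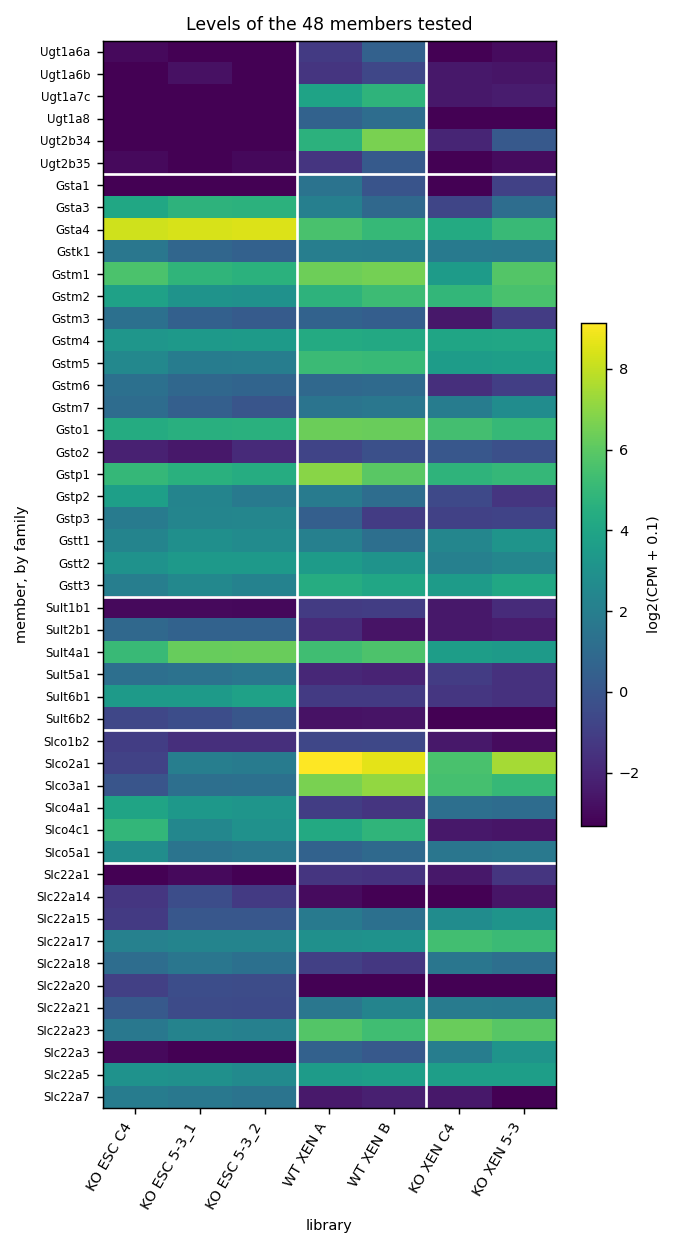
Level of each of the 48 genes tested in the 7 libraries, as log2 of CPM plus 0.1, with families separated by horizontal and groups by vertical white lines. Gsta4 is brightest in KO ESC and Slco2a1 in WT XEN. Ugt1a7c, Ugt1a8 and Ugt2b34 are each brightest in the 2 WT XEN libraries, where Ugt1a8 is at only 1.42 and 2.13 CPM. Ugt2b34 is at 1.02 CPM in KO XEN 5-3.

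The Ugt1a genes form an unusual locus: on chromosome 1 (plus strand, GRCm38, the assembly also called mm10) 9 genes lie one behind the other, and each transcript joins its own first exon to the same downstream exons. In the GENCODE annotation 3 complete exons, 88215044 to 88215175, 88215795 to 88215882 and 88216138 to 88216357, are common to all 9 genes, as is the start of the last exon at 88218127. The first exon encodes the part of the enzyme that recognises the substrate, and the common exons encode the part that binds UDP-glucuronic acid. The sequences around the first splice junction are shown because they mark where a gene's own first exon ends and the common exons begin. The last 36 bases of the first exon are in lower case and the first 36 bases of the common exon in capitals. They are from GENCODE transcripts on GRCm38, with each first exon's position.
Ugt1a1, first exon at chr1:88211959-88212871: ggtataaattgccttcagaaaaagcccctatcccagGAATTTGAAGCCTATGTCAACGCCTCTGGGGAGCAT
Ugt1a2, first exon at chr1:88200601-88201500: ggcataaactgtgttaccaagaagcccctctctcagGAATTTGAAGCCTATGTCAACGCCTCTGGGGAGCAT
Ugt1a5, first exon at chr1:88166012-88166903: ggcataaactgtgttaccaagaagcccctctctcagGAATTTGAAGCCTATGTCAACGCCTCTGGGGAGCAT
Ugt1a6a, first exon at chr1:88138378-88139331: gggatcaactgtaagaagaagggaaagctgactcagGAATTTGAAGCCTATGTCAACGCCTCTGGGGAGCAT
Ugt1a6b, first exon at chr1:88106862-88107799: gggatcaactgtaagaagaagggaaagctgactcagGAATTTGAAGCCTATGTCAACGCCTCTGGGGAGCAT
Ugt1a7c, first exon at chr1:88095064-88095978: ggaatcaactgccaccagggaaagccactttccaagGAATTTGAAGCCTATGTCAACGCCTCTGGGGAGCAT
Ugt1a8, first exon at chr1:88087813-88088721: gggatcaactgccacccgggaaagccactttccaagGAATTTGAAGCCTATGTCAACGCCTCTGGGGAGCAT
Ugt1a9, first exon at chr1:88070800-88071678: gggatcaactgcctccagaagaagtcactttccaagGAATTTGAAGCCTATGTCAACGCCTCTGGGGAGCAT
Ugt1a10, first exon at chr1:88055411-88056336: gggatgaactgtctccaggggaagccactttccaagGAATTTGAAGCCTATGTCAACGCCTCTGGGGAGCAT
The capitals were the same in all 9 genes. The lower-case parts of Ugt1a6a and Ugt1a6b were identical to each other, as were those of Ugt1a2 and Ugt1a5. That of Ugt1a8 shared 34 of its 36 bases with Ugt1a7c. Those of Ugt1a10 and Ugt1a9 shared 31 and 30, and those of the other genes 18 to 26.

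These shared exons limit what the Ugt1a counts say about single genes. Bases that belong to 1 gene are given by position, and sequence identical between genes was not set apart. The exonic bases that belong to 1 gene alone made up 17.3% of Ugt1a1, 35.7% of Ugt1a10, 39.4% to 40.8% of Ugt1a2, Ugt1a5, Ugt1a6b, Ugt1a8 and Ugt1a9, 45.4% of Ugt1a7c and 49.7% of Ugt1a6a. For Ugt1a7c, only 915 of its 1915 own bases lie in its first exon, and 998 lie at the end of the last exon, past the end annotated for the other genes. For Ugt1a6a, 1920 of its 2142 own bases lie after the start of the common exons, the last at 88217403, before the last exon begins. They are outside the exons annotated for the other Ugt1a genes, so only reads of unspliced RNA of those could fall there. A read from past the annotated 3′ end of any other Ugt1a transcript could be counted for Ugt1a7c. How reads in shared exons were treated is not given in the sources used here. Over WT XEN, Ugt1a5 had 5 reads and Ugt1a7c 1528, so shared reads do not appear to have been counted for each gene. If they were left out, the sum over the Ugt1a genes is below the total of the locus. The levels of single Ugt1a genes are uncertain and their sum is the firmer value.

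Over the 9 Ugt1a genes together, 1, 2 and 1 reads were counted in the KO ESC libraries, 648 and 1167 in WT XEN A and B, and 2 (C4) and 6 (5-3) in KO XEN. Only the WT XEN libraries thus held more than a handful of Ugt1a reads. Ugt1a7c took most of them, with 15.0 and 27.1 CPM in WT XEN, 0.0726 and 0.0923 CPM in KO XEN and 0 counts in each KO ESC library. It fell by 7.88 ± 0.59 (SE) on the log2 scale in KO XEN against WT XEN (edgeR quasi-likelihood adjusted p = 0.000347). In WT XEN it was at least 934-fold higher than the floor of 3 counts over the KO ESC group. Its rise in KO XEN over KO ESC (adjusted p = 0.0145) rests on 4 counts, at least 3.84-fold over that floor, and was lost without KO XEN 5-3 (adjusted p = 0.0982). Ugt1a8 was at 1.42 and 2.13 CPM in WT XEN and at 0 in the other 5 libraries, which makes WT XEN at least 27.4-fold higher than KO XEN (adjusted p = 0.0039). Ugt1a6a was at 0.329 and 1.38 CPM in WT XEN and had 1 count in KO XEN, a ratio of 39.5 (exact 95% interval 6.83 to 1584, counting error only). Its fall in KO XEN (adjusted p = 0.013) did not pass without KO XEN C4 (adjusted p = 0.0662) or without KO XEN 5-3 (adjusted p = 0.0691). Ugt1a6b, at 0.274 and 0.525 CPM in WT XEN and with 3 counts in KO XEN, did not pass there (log2 fold change -2.55 ± 1.04, adjusted p = 0.0766).

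Below the filter lay Ugt1a1, the enzyme that conjugates bilirubin, with 3 and 9 reads in WT XEN A and B and 0 elsewhere. Ugt1a10 had 8 and 8 reads, Ugt1a9 had 9 and 13, and Ugt1a2 had 4 and 8 in the same libraries, and Ugt1a5 had 1 and 4. All 5 were at 0 in both KO XEN libraries, and the single read of them in KO ESC was of Ugt1a5 in 5-3_2. Per kilobase of bases that belong to 1 gene only, the mean WT XEN level was 11 CPM for Ugt1a7c, 1.95 for Ugt1a8 and 0.0773 to 0.43 for the other 7 genes. Over all exonic bases Ugt1a7c (4.99 CPM per kilobase) and Ugt1a8 (0.798) came first as well.

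**Figure D3:**
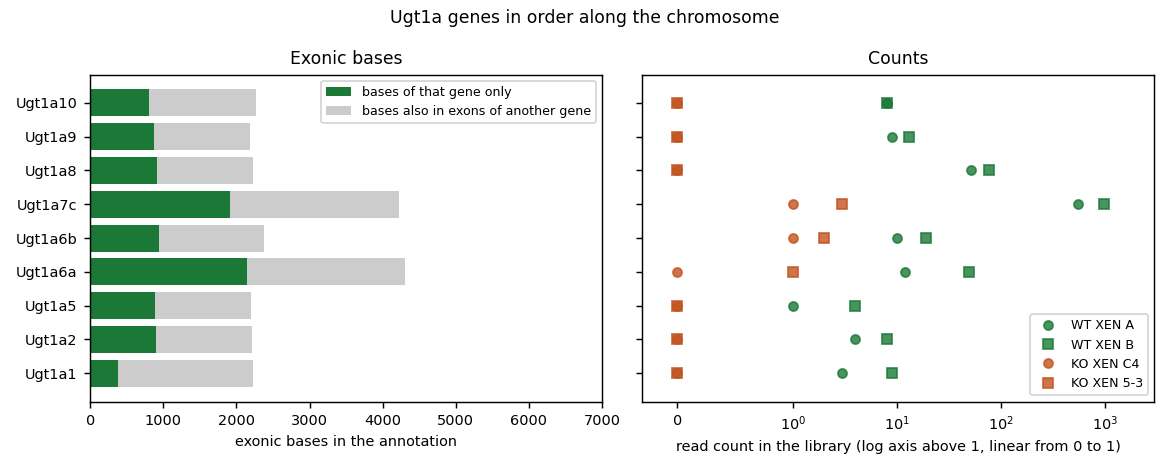
Left, exonic bases of each Ugt1a gene that belong to that gene only and those also in exons of another gene; right, read counts in the WT XEN and KO XEN libraries (log axis above 1 read, linear from 0 to 1). Ugt1a7c has the most reads, 1528 over both WT XEN libraries, and most genes sit at 0 in KO XEN.

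Outside Ugt1a, the family rests on Ugt2b34, a steroid and drug glucuronosyltransferase gene on chromosome 5 (86889767 to 86906937). It was at 0 in each KO ESC library, at 25.5 (A) and 98.5 (B) CPM in WT XEN, and at 0.145 (C4) and 1.02 (5-3) CPM in KO XEN. WT XEN B was above A, and both were above every library of the other groups. Ugt2b34 fell by 6.5 ± 0.97 on the log2 scale in KO XEN against WT XEN (adjusted p = 0.00309). KO XEN was at least 33.6-fold above the KO ESC floor (adjusted p = 0.013), and this call did not pass without KO XEN 5-3 (adjusted p = 0.225). Its neighbour Ugt2b35 was at 0.274 and 1.05 CPM in WT XEN and had 1 count in KO XEN, a ratio of 30.6 (exact 95% interval 5.23 to 1232). That fall (adjusted p = 0.0141) did not pass without KO XEN C4 (adjusted p = 0.0704) or without KO XEN 5-3 (adjusted p = 0.0712). Ugt2b36 had 2 and 17 reads in WT XEN and 1 in KO XEN. Ugt3a2 had 8 and 14 reads in WT XEN, 9 over KO ESC and 0 in KO XEN, and Ugt3a1, Ugt2b5 and Ugt2b38 had 1 read each in all. The 6 Ugt genes that entered the test did so through their WT XEN reads (29 to 4493 over that group, against 0 to 35 over KO XEN and 0 to 2 over KO ESC), which sets their direction, so no count of calls is read from them.

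Glutathione transferases were the family with the widest expression. All 21 genes were detected in some library, and 17 had a mean of at least 1 CPM across KO ESC, 17 across WT XEN and 13 across KO XEN. Of the 19 tested, 7 were lower in KO XEN than WT XEN, none higher and 12 did not pass. Over all genes 23.9% were lower and 22.3% higher there. Against KO ESC, 8 were higher in KO XEN and 7 lower, near the shares of 34.8% and 34.3% over all genes. In WT XEN against KO ESC 8 were higher and 3 lower, where those shares were 32.2% and 30.3%. Gst genes were thus called in both directions against KO ESC, as were genes outside the family.

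In the alpha class Gsta4 and Gsta3 were lower in XEN than in ES cells. Gsta4, which conjugates the lipid peroxidation product 4-hydroxynonenal, stood at 305, 334 and 355 CPM across KO ESC, 47.5 and 32.3 across WT XEN, and 19.5 and 34.7 across KO XEN. It carried 66.3% of all Gst CPM in KO ESC, and per kilobase of exon its level there (262 CPM) was above that of Sult4a1 (25.2), the next of the 101 genes. No XEN library reached a KO ESC library. Gsta4 fell by 3.6 ± 0.30 on the log2 scale in KO XEN against KO ESC (adjusted p = 2.47e-05) and by 3.05 ± 0.29 in WT XEN against KO ESC (adjusted p = 7.71e-05). Between the XEN groups it did not pass (-0.55 ± 0.29, adjusted p = 0.154), although it did without KO XEN 5-3 (-1.12, adjusted p = 0.0265). Gsta3, an isomerase of steroid synthesis as well as a transferase, was at 16.9, 26.2 and 25.5 CPM across KO ESC, 4.11 and 1.77 across WT XEN and 0.508 and 2.12 across KO XEN. It too was lower in both XEN groups than in KO ESC (adjusted p = 0.000615 for KO XEN and 0.00243 for WT XEN). Gsta1 went the other way, from 0 in each KO ESC library to 2.63 and 0.829 CPM in WT XEN, with 0 (C4) and 0.431 (5-3) CPM in KO XEN. Its rise in WT XEN was at least 77.0-fold over the floor (adjusted p = 0.00333). Its call in KO XEN against KO ESC rests on the 5-3 library, since C4 had 0 counts and the log2 fold change without 5-3 was 0.0. Gsta2 had 9 reads over KO ESC, 12 over WT XEN and 2 over KO XEN.

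The mu class lies as a row of 7 close paralogs on chromosome 3 (107895821 to 108044894), so reads that match several of them are uncertain. Gstm1 was at 48.2, 28.2 and 24.7 CPM across KO ESC, 83.3 and 93.8 across WT XEN, and 11.5 (C4) and 55.4 (5-3) across KO XEN. The KO XEN libraries lay on opposite sides of the KO ESC range, and no comparison passed. KO XEN against WT XEN (-1.39, adjusted p = 0.102) passed with DESeq2 (-1.4, adjusted p = 0.0403), with line 5-3 alone (-0.68, adjusted p = 0.0378) and without KO XEN 5-3 (-3.03, adjusted p = 0.00433). WT XEN against KO ESC (1.39 ± 0.55, adjusted p = 0.055) missed the threshold and passed in 7 of the alternatives tried, DESeq2 among them. Without KO XEN 5-3 the log2 fold change of KO XEN against KO ESC went from 0.00 to -1.63 (adjusted p = 0.0141), and with line 5-3 alone it was 1.06 (adjusted p = 0.00466). Gstm2 rose from 14.1, 8.29 and 7.77 CPM across KO ESC to 27.0 and 36.9 across WT XEN and 30.9 and 47.4 across KO XEN. Its level passed in both XEN groups against KO ESC (1.97 ± 0.32 for KO XEN, adjusted p = 0.000757) and not between them (0.30 ± 0.35, adjusted p = 0.514). Gstm5 was at 5.64, 3.65 and 3.86 CPM across KO ESC, 36.6 and 33.6 across WT XEN and 11.9 and 12.8 across KO XEN. The 3 groups did not overlap, with KO XEN between the others. Gstm5 was 1.5 ± 0.26 lower on the log2 scale in KO XEN than WT XEN (-1.5, adjusted p = 0.00263), and 3.00 ± 0.24 higher in WT XEN than KO ESC (adjusted p = 3.02e-05). Its exons overlap the antisense gene 4933431E20Rik. Gstm3 and Gstm6 were lower in KO XEN than in both other groups. Against WT XEN they went from 1.4 and 1.22 to 0.0726 and 0.369 CPM for Gstm3 and from 1.78 and 1.88 to 0.218 and 0.40 CPM for Gstm6. The Gstm6 fall was 2.47 ± 0.49 (adjusted p = 0.00466), whereas that of Gstm3 (adjusted p = 0.0244) did not pass when KO XEN C4 (adjusted p = 0.0908), A (0.0686) or B (0.0639) of WT XEN was left out. Gstm4 and Gstm7 rose in KO XEN against KO ESC (0.67 ± 0.18 and 1.91 ± 0.43) and did not pass against WT XEN; without KO XEN 5-3 neither rise passed (log2 fold changes 0.56 and 1.35).

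Gstp1 and Gsto1 were highest in WT XEN, unlike the other pi and omega genes. Gstp1, the main pi-class enzyme, was at 31.3, 24.0 and 20.7 CPM across KO ESC, 120 and 61.3 across WT XEN, and 27.2 and 31.6 across KO XEN. KO XEN thus stood within the range of KO ESC, apart from 5-3 just above it, and below both WT XEN libraries. Gstp1 fell by 1.62 ± 0.33 on the log2 scale in KO XEN against WT XEN (adjusted p = 0.00547) and differed by 0.22 ± 0.30 from KO ESC (adjusted p = 0.534). Gsto1, an omega-class enzyme with thioltransferase activity, was at 20.0, 23.4 and 23.9 CPM across KO ESC, 82.5 and 79.8 across WT XEN and 42.6 and 32.9 across KO XEN. It fell by 1.11 ± 0.19 in KO XEN against WT XEN (adjusted p = 0.00237) and stayed above KO ESC (0.75 ± 0.17, adjusted p = 0.0045). Gstp2 and Gstp3, copies next to Gstp1 on chromosome 19, were at 3.36 to 13.1 and 3.58 to 5.16 CPM in KO ESC and at or below 0.581 CPM in KO XEN. Gsto2, at 0.072 to 0.18 CPM in KO ESC, was called higher in both XEN groups, at 0.493 and 0.719 CPM in WT XEN and 0.944 and 0.738 in KO XEN. The Gsto2 call in WT XEN rests on 44 counts against 17 over KO ESC and was not kept in every alternative. Its log2 fold change there was 2.24, and 1.95 without WT XEN B. The fall of Gstp2 in KO XEN against WT XEN (-2.82 ± 0.80, adjusted p = 0.0212) did not pass without WT XEN A (adjusted p = 0.0698), KO XEN C4 (0.0526) or KO XEN 5-3 (0.129). Of the theta class, Gstt3 rose from 3.94, 5.55 and 4.52 CPM across KO ESC to 21.3 and 16.5 across WT XEN and 11.3 and 17.3 across KO XEN. Gstt2 was at 11.4 and 8.41 CPM in WT XEN and 4.21 and 5.2 in KO XEN, a fall of 1.07 ± 0.29 (adjusted p = 0.0188) that did not pass without WT XEN A (adjusted p = 0.0779) or KO XEN C4 (0.0975). The mitochondrial Gstk1, with 1.34 to 3.92 CPM over the 7 libraries, passed in no comparison, although WT XEN against KO ESC (0.97, adjusted p = 0.0577) passed with DESeq2 (0.0475), with the replicate block (0.0403), with line 5-3 alone (0.0093) and without KO ESC C4 (0.00626). KO XEN against KO ESC (0.7, adjusted p = 0.146) passed with line 5-3 alone (0.0341) and without KO ESC C4 (0.0189).

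Sulfotransferase transcripts were mostly those of Sult4a1, a brain-enriched member for which no clear substrate is known. It took 78.7% of Sult CPM across KO ESC, 96.8% across WT XEN and 92.2% across KO XEN. Its level was 34.9 (C4), 77.1 and 78.2 (5-3) CPM across KO ESC, 39.6 and 50.8 across WT XEN, and 12 and 10.9 across KO XEN. Both KO XEN libraries were below all others, and WT XEN lay between the KO ESC lines. Sult4a1 fell by 1.99 ± 0.38 on the log2 scale in KO XEN against WT XEN (adjusted p = 0.00416) and by 2.48 ± 0.37 against KO ESC (adjusted p = 0.00053). In WT XEN against KO ESC it did not pass (-0.49 ± 0.33, adjusted p = 0.231), but did without KO ESC C4 (-0.80, adjusted p = 0.00492). The ES cell marker sums were lowest in KO XEN (70.9 and 97.6 CPM). Sult4a1, Slco4c1, Gstm3, Gstm6 and Gstp2 were likewise lower in KO XEN than WT XEN. Other members counted in KO ESC went another way. Slco4a1 and Slc22a18 were higher in KO XEN than WT XEN (log2 fold changes 2.67 and 2.83). Gsta3, Gsta4, Sult5a1 and Sult6b1 were among those that did not pass there. The part of the ES cell markers was not tested.

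Of the other Sult genes 4 that entered the test were counted mostly in KO ESC. Sult6b1 was at 11, 11 and 14.1 CPM across KO ESC, 0.329 and 0.332 across WT XEN, and 0.29 and 0.246 across KO XEN. It fell by 5.50 ± 0.36 in KO XEN and 5.17 ± 0.34 in WT XEN against KO ESC (adjusted p = 7.86e-06 and 1.4e-05), with no call between the XEN groups (-0.33 ± 0.40, adjusted p = 0.586). Sult5a1 (2.26 to 2.84 CPM in KO ESC), Sult2b1 (1.42 to 1.78 CPM), which sulfates cholesterol, and Sult6b2 (0.528 to 0.921 CPM) were lower in both XEN groups as well, at 0.363 CPM or less in each XEN library. Sult5a1, Sult2b1 and Sult6b2 entered the test through their KO ESC reads, which sets their direction. They had 339, 204 and 96 reads over KO ESC, against 0 to 13 over each XEN group. Sult1b1 was higher in both XEN groups than across KO ESC, at 0.356 and 0.387 CPM across WT XEN and 0.0726 and 0.185 across KO XEN, and its call in KO XEN rests on 7 counts against 3 and did not pass without KO XEN 5-3 (adjusted p = 0.459). The estrogen sulfotransferase gene Sult1e1 had 3 reads in all, and 8 Sult genes had none.

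The Slco family had the highest sums in WT XEN, owing to Slco2a1 and Slco3a1, which took 76.8% and 19.0% of its CPM there. Slco2a1, the prostaglandin transporter, was at 0.456 (C4), 3.99 and 3.58 (5-3) CPM across KO ESC, 566 and 403 across WT XEN, and 47.6 (C4) and 177 (5-3) across KO XEN. The 3 groups did not overlap. Slco2a1 rose by 7.49 ± 0.89 on the log2 scale in WT XEN (adjusted p = 0.000208) and by 5.39 ± 0.82 in KO XEN (adjusted p = 0.00057) against KO ESC. Between the XEN groups the log2 fold change was -2.10 ± 0.82, which did not pass (adjusted p = 0.0685). It passed with the knockout line as a replicate block (-2.39, adjusted p = 0.000832), without KO ESC C4 (-2.17, adjusted p = 0.0167), without KO XEN 5-3 (-3.43, adjusted p = 0.0443) and with line 5-3 alone (-1.45, adjusted p = 0.0122). Slco3a1, a carrier of prostaglandins and thyroxine, was at 0.888, 2.28 and 2.30 CPM across KO ESC, 101 and 138 across WT XEN, and 44.1 and 32.8 across KO XEN. It rose by 4.39 ± 0.38 in KO XEN against KO ESC (adjusted p = 2.85e-05). The fall in KO XEN against WT XEN was 1.64 ± 0.39 (adjusted p = 0.0105) and did not pass without WT XEN B (adjusted p = 0.063) or KO XEN 5-3 (0.0685).

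Slco4c1 and Slco4a1 behaved differently from this pair. Slco4c1, an uptake carrier of the kidney for digoxin and thyroid hormones, was at 30.2 (C4), 5.43 and 7.77 (5-3) CPM in KO ESC and at 19.0 and 28.5 in WT XEN. In KO XEN it was at 0.0726 (C4) and 0.0615 (5-3) CPM, which are 3 reads in all against 1723 in WT XEN. The ratio of WT XEN over KO XEN was 366 (exact 95% interval 125 to 1775, counting error only), and that of KO ESC over KO XEN was 217 (74.0 to 1051). Both falls were called, with adjusted p = 0.0012 and 0.000645. WT XEN against KO ESC did not pass (0.72 ± 0.64, adjusted p = 0.358), but did without KO ESC C4 (1.83, adjusted p = 0.00181). Slco4a1, a thyroid hormone carrier, was at 15.2, 9.94 and 9.09 CPM across KO ESC, 0.384 and 0.276 across WT XEN, and 2.25 and 2 across KO XEN. Of the 6 Slco genes tested it was the only one called higher in KO XEN than WT XEN (2.67 ± 0.41, adjusted p = 0.00153), and in KO XEN it was still below KO ESC (-2.43 ± 0.35, adjusted p = 0.000412). Slco1b2, the hepatocyte bile acid and bilirubin carrier, stood at 0.521 and 0.553 CPM in WT XEN and had 2 counts in KO XEN, a ratio of 12.4 (exact 95% interval 3.21 to 106). That call (adjusted p = 0.0078) did not pass without KO XEN 5-3 (adjusted p = 0.0859). Slco5a1 was at 6.70, 2.67 and 3.08 CPM across KO ESC, 1.4 and 1.82 across WT XEN and 2.83 and 3.14 across KO XEN, and its fall in WT XEN (adjusted p = 0.0339) did not pass without KO ESC C4 (adjusted p = 0.0532) or without A (0.168) or B (0.0831) of WT XEN. Below the filter, Slco1a5 had 2 (C4) and 21 (5-3) reads in KO XEN against 1 over WT XEN and 1 over KO ESC, and Slco1a4 had 7 and 4 reads in KO XEN against 2 and 0.

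The upstream sequence of Slco4c1 is shown because this gene had reads in both WT XEN libraries and 3 over both KO XEN libraries. It is the 250 bases before the start site, 5′ to 3′ on the gene's strand, from RefSeq on GRCm38.p6, with matches to the antioxidant response element TGACNNNGC, on either strand, in capitals.
Slco4c1, chr1:96872172-96872421, minus strand: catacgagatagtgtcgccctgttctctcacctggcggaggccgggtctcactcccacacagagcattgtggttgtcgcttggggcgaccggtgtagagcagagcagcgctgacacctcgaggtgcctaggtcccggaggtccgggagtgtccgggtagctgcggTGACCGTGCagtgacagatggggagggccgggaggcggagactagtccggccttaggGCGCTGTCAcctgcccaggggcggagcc
The 2 matches begin 85 and 28 bases before the start site. Shares are given for 4 of the 5 motifs searched. Over the 103 upstream windows found for 88 of the 101 genes, TGACNNNGC was in 6.8%, against 10.2% of all 32851 windows of the table. The GATA site AGATAA was in 15.5% against 10.0%, the xenobiotic response element GCGTG in 16.5% against 28.2%, and the E-box CACGTG in 1.9% against 6.0%. These are matches of letters only. Ugt2b34, Ugt1a7c, Slco2a1 and Sult6b1 held none of these motifs in their window.

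Slc22a was the family with its highest sum in KO XEN. Of its 11 genes tested, 4 were higher in KO XEN than WT XEN and none lower, where 22.3% of all genes were higher and 23.9% lower. Against KO ESC, 7 were higher and 3 lower in KO XEN, with 34.8% and 34.3% of all genes. In WT XEN against KO ESC 7 were higher and 4 lower, with 32.2% and 30.3% of all genes. Some entered the test only through the groups where they are high, which sets their direction. Slc22a7, Slc22a14 and Slc22a20 had 414, 57 and 77 reads over KO ESC against 0 to 7 over each XEN group. Slc22a3 had 1 over KO ESC against 87 over WT XEN and 329 over KO XEN. Slc22a17, the brain-type organic cation transporter gene whose product is also known as a lipocalin 2 receptor, was at 4.39, 4.78 and 4.78 CPM across KO ESC, 7.43 and 8.02 across WT XEN, and 41.8 and 35.9 across KO XEN. The groups did not overlap, and the spread within each was small against the distance to KO XEN. Its log2 fold change was 2.33 ± 0.21 in KO XEN against WT XEN (adjusted p = 0.000225) and 3.06 ± 0.18 against KO ESC (adjusted p = 5.35e-06). Slc22a18, an organic cation transporter-like gene in the imprinted region of distal chromosome 7, was at 2.09, 2.86 and 2.36 CPM across KO ESC, 0.411 and 0.304 across WT XEN, and 2.90 and 2.25 across KO XEN. KO XEN thus overlapped the range of KO ESC (0.07 ± 0.35, adjusted p = 0.866), and exceeded WT XEN by 2.83 ± 0.43 (adjusted p = 0.00145).

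Slc22a3, the extraneuronal monoamine transporter, had 1 read in the 3 KO ESC libraries, 1.37 and 1.02 CPM in WT XEN, and 3.78 and 8.52 CPM in KO XEN. KO XEN exceeded KO ESC 947-fold (exact 95% interval 169 to 37535, on 329 counts against 1). Against WT XEN it rose by 2.37 ± 0.58 on the log2 scale (adjusted p = 0.0117), a call that did not pass without WT XEN B (adjusted p = 0.0775) or KO XEN 5-3 (0.123). Slc22a3 overlaps exons of Plg on the other strand. Slc22a15, at 3.32 and 2.29 CPM in WT XEN and 6.68 and 8.65 in KO XEN, passed narrowly (1.45 ± 0.50, adjusted p = 0.0451) and did not when any 1 of 6 libraries was left out, KO ESC C4 being the exception (adjusted p 0.0653 to 0.215). Slc22a23, an orphan carrier, rose from 3.07, 4.64 and 4.22 CPM across KO ESC to 56.5 and 39.5 across WT XEN and 78.3 and 58.9 across KO XEN. It was the most counted Slc22a gene in both XEN groups, with 62.8% and 48.7% of the family's CPM, and did not pass between them (0.51 ± 0.27, adjusted p = 0.149). The carnitine transporter gene Slc22a5 was at 6.12 to 7.97 CPM in KO ESC and 11.2 to 12.8 CPM in the XEN libraries (0.81 ± 0.21 in KO XEN against KO ESC, adjusted p = 0.00954, which was 0.0579 without KO ESC 5-3_2 and 0.0694 without KO XEN 5-3), and its neighbour Slc22a21 went from 0.60 to 1.03 CPM up to 2.93 to 4.81 CPM.

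A smaller set of Slc22a genes was counted mostly in ES cells. Slc22a7, a liver and kidney anion carrier, was at 3.65, 3.12 and 2.64 CPM across KO ESC, 0.0822 and 0.111 across WT XEN, and 0.0726 and 0 across KO XEN. It was 144-fold lower in KO XEN (exact 95% interval 25.7 to 5692, on 1 count against 414; adjusted p = 0.000153) and fell by 4.98 ± 0.63 on the log2 scale in WT XEN (adjusted p = 0.000294). Slc22a20, an olfactory anion carrier, was at 0.408 to 0.672 CPM in KO ESC and had 0 counts in all 4 XEN libraries, so KO ESC was at least 14-fold above WT XEN and 8.91-fold above KO XEN. Slc22a14 had 57 counts over KO ESC, 1 over WT XEN and 2 over KO XEN, and its fall in KO XEN did not pass without KO XEN C4 (adjusted p = 0.0833). The kidney carrier genes Slc22a6, Slc22a8 and Slc22a12 had 2, 7 and 4 reads over all libraries.

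**Figure D4:**
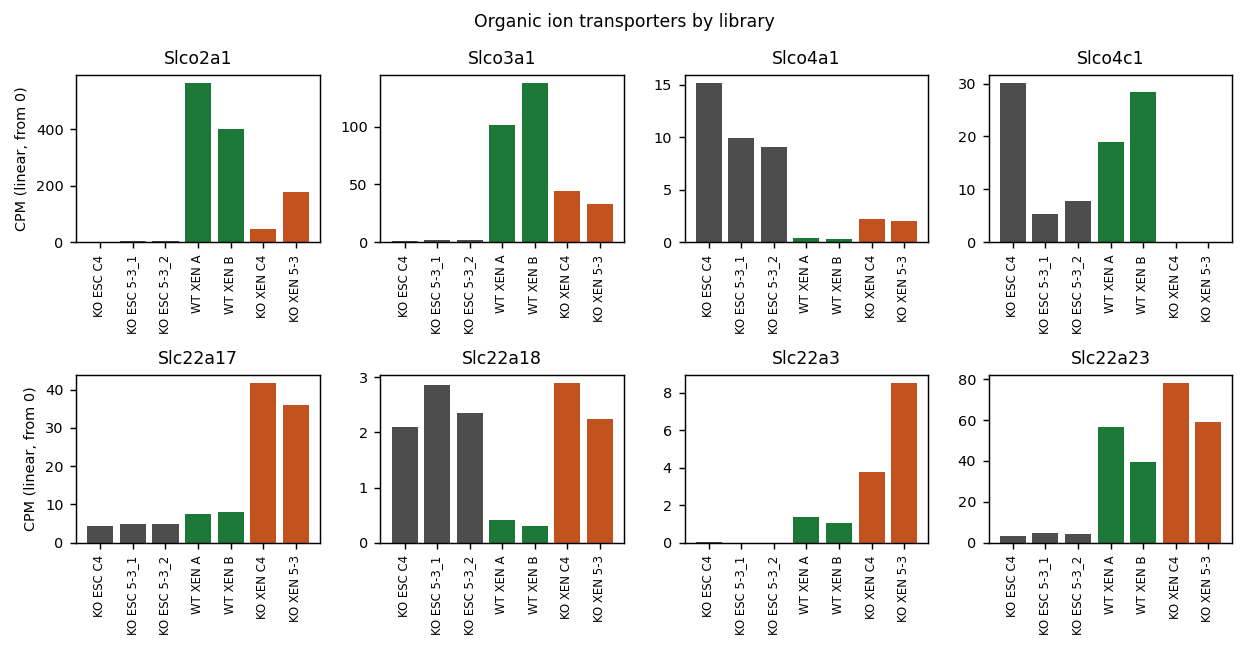
CPM (linear axes from 0, a scale for each panel) of 8 carriers in the 7 libraries, 1 bar per library. Slco2a1 and Slco3a1 are highest in WT XEN, Slco4c1 has almost no bar in KO XEN (0.0726 and 0.0615 CPM), and Slc22a17 and Slc22a3 are highest in KO XEN.

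**Figure D5:**
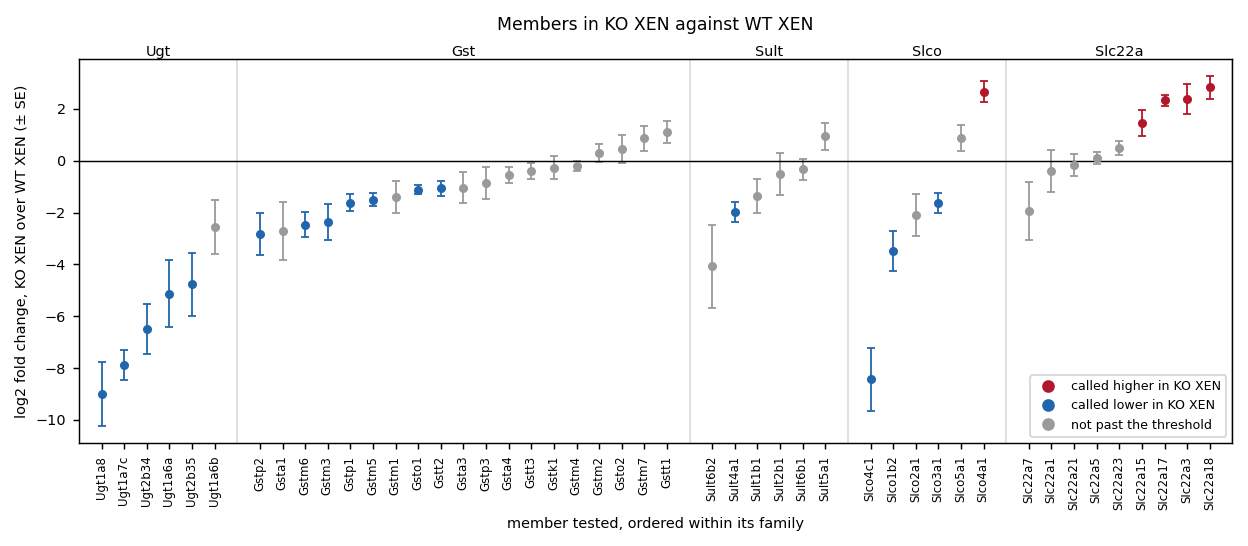
Log2 fold change (± SE) of KO XEN over WT XEN for 46 genes tested, ordered within families; Slc22a14 and Slc22a20, with 3 or fewer counts in each group, are not drawn, and values of genes with 0 counts in a group depend on the fit's prior count. The 6 Ugt genes, which entered the test through WT XEN, lie below 0, and the genes called higher lie in Slco (1) and Slc22a (4).

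The supply of the conjugated groups was examined in gene lists chosen for their place in each pathway. Over all genes tested, 22.3% were called higher and 23.9% lower in KO XEN against WT XEN. In WT XEN against KO ESC these shares were 32.2% and 30.3%. The lists are short, and their counts are a description. Among 7 genes of UDP-glucuronic acid supply and removal 3 were lower and 1 higher in KO XEN than WT XEN. Ugdh, which makes UDP-glucuronic acid, stood at 48.8, 40.5 and 41.6 CPM across KO ESC, 135 and 185 across WT XEN and 37.2 and 47.6 across KO XEN (-1.91 ± 0.22 between the XEN groups, adjusted p = 0.000459). The carrier gene Slc35d1, which brings UDP-glucuronic acid into the endoplasmic reticulum, was the gene that rose (1.18 ± 0.23, adjusted p = 0.0044). Among 11 genes of PAPS supply and sulfatases, 3 were higher and 3 lower in KO XEN than WT XEN, near the shares over all genes. In WT XEN against KO ESC 9 were higher and none lower. Slc26a2, a sulfate uptake carrier, was at 43.0 to 59.1 CPM across KO ESC, 519 and 661 across WT XEN, and 19.3 and 30.6 across KO XEN (-4.56 ± 0.29, adjusted p = 0.000131). Papss2, a PAPS synthase, was higher in KO XEN (1.42 ± 0.30, adjusted p = 0.00647), at 27.7 and 26.4 CPM against 8.41 and 11.8. The 22 genes of glutathione synthesis and use were split, 7 higher and 9 lower in KO XEN against WT XEN, with Gpx7 up (3.70 ± 0.32, adjusted p = 0.00021) and Ggt1, which cleaves extracellular glutathione, down (-3.98 ± 0.47, adjusted p = 0.000531).

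Other transferases and carriers were counted in the same way, beside the same shares over all genes. Of 6 membrane-bound glutathione transferases and relatives 4 were higher in KO XEN than WT XEN, among them the prostaglandin E synthase gene Ptges (304 and 109 CPM against 21.9 and 9.93), and Mgst3 was lower, at 2.76 and 8.98 CPM against 149 and 114 (-4.43 ± 0.48, adjusted p = 0.000385). Of 17 efflux and other organic ion transporters tested, 3 were higher and 8 lower in KO XEN than WT XEN. Slc47a1, which exports organic cations, went from 26.5, 38.8 and 35.4 CPM across KO ESC to 4.85 and 4.17 across WT XEN and 0.218 and 0.0923 across KO XEN. Of 29 phase 1 enzymes tested, which oxidise or hydrolyse compounds before conjugation, 6 were higher and 8 lower in KO XEN than WT XEN, which is near the shares over all genes (22.3% and 23.9%). Cyp1b1 was higher, at 164 and 142 CPM against 53.5 and 54.9 (1.5 ± 0.17, adjusted p = 0.000411), and Cyp27a1 lower, at 2.61 and 4.28 CPM against 70.7 and 60.1 (-4.22 ± 0.38, adjusted p = 0.000231). Of 6 other conjugating enzymes tested Nnmt was higher and As3mt lower.

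Regulators known for these genes were examined in the same way, beside the same shares over all genes. Of 12 hepatic factors tested 6 were lower and 1 higher in KO XEN than WT XEN, and 9 were higher and 2 lower in WT XEN than KO ESC. Hnf4a was at 11.1, 11.9 and 12 CPM across KO ESC, 81.1 and 44.9 across WT XEN and 0.218 and 3.85 across KO XEN (-4.80 ± 0.81 between the XEN groups, adjusted p = 0.00231). Cebpb was the factor that was higher (2.03 ± 0.43, adjusted p = 0.00608). Of 12 xenobiotic and bile acid receptors tested 7 were higher and none lower in KO XEN than WT XEN, among them Vdr (27.4 and 23.8 CPM against 1.42 and 0.581) and Pparg (15.2 and 19.6 CPM against 4.88 and 3.37). Of 18 NRF2 pathway genes 2 were higher, 2 lower and 14 did not pass, and the cystine carrier gene Slc7a11 was at 22.8 and 29.9 CPM in WT XEN and 0.508 and 0.369 in KO XEN (-5.95 ± 0.61, adjusted p = 0.000322). Of 8 endocytic and polarity partners of carriers 6 were lower in KO XEN, with Lrp2, an apical uptake receptor, at 4582 and 3186 CPM in WT XEN and 43.3 and 52.1 in KO XEN, and Slc9a3r2 was higher. The median log2 fold changes in KO XEN against WT XEN were 0.99 for the receptors, -1.28 for the hepatic factors, -0.05 for the NRF2 genes and -4.28 for the endocytic partners, against 0 for all genes tested. Lrp2, Cubn, Amn and Dab2 of the endocytic partners are also among the visceral and primitive endoderm markers above. So are Hnf4a and Foxa2 of the hepatic factors, and these lists are not separate from the markers.

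Whether differentiation acted differently in lines C4 and 5-3 was tested as an interaction. KO ESC C4, KO XEN C4 and KO XEN 5-3 are 1 library each here, so their spread is taken from the 2 groups with replicates (2 residual degrees of freedom), and a lack of calls says little. None of the 48 genes passed (edgeR quasi-likelihood, smallest adjusted p = 0.227), and 7 had an unadjusted p below 0.05, where 10.0% of all genes did so with 0 called. The smallest was that of Gstm1, with a difference of -3.13 on the log2 scale between C4 and 5-3.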

How the data were processed

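RNA-seq of 7 libraries was made with an Illumina TruSeq kit per the labels, which call the protocol reverse-stranded. Per the submitters' processing notes, STAR 2.4.2a, featureCounts 1.4.5-p1 and the build mm10 were used. The authors deposited gene-level read counts under Ensembl IDs, as whole numbers and not normalized. The strand setting, the treatment of reads shared between genes and the annotation release are not given in the sources used here.

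Sample titles gave the groups and lines. Symbols, biotypes and exons come from GENCODE M21 (GRCm38), which matched 42548 IDs; the other 1081 held 0.136% of counts and stayed in the fit. All 7 libraries entered 1 edgeR 4.0.16 quasi-likelihood fit in R 4.3.3 (limma 3.58.1) for 3 groups, scaled by TMM and filtered with filterByExpr (minimum count 10), which kept 18426 genes and set aside 25203. Genes at a Benjamini-Hochberg adjusted p below 0.05 over all genes were called, and the pipeline was tested on simulated counts. Residual degrees of freedom were 4, prior ones 3.92 at the median, and the biological coefficient of variation was 0.268.

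Folds against a group at 0 are bounds, taken against 3 counts over that group (0.0225 CPM in KO ESC, 0.0413 in WT XEN, 0.0648 in KO XEN), and with 1 to 3 counts the ratio has an exact 95% interval. No 2 libraries agreed within sampling noise: chi-square per degree of freedom was 19.5 for 5-3_1 against 5-3_2 and 42.1 to 94.6 for the other pairs of a group. Knockout libraries are paired by their labelled line, although C4 minus 5-3 in KO ESC had an r of 0.0634 with C4 minus 5-3 in KO XEN over 18426 genes. An alternative had the line as a block, with wild type midway. Other alternatives were DESeq2 1.42.0, other scalings, filters and sets of libraries. Promoter windows were 250 bases upstream, from RefSeq on GRCm38.p6.

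The members and the gene lists were chosen with earlier results of these data known. Named members have a mean of at least 10 CPM in a group, or are among the 10 largest rises or falls of a comparison with at least 1 CPM in the higher group, or change call or direction in an alternative. From each list up to 4 called genes with the smallest adjusted p and genes against the list's majority could be named. Sult6b2 and Slc22a20, which passed the filter, were named outside the rule for members. Members below the filter were named after their counts were seen. Of the list symbols, Sts had no match. A gene and the results of 1 of the 5 motifs searched are withheld for evaluation and not reported here.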

Additional observations from a re-analysis of the deposited data

How the results depend on the processing

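In KO XEN against WT XEN 12 of 21 called members kept their call in every alternative tried, 9 lost it in some and 8 others passed in some. In KO XEN against KO ESC the figures were 27 of 38, 11 and 3, and in WT XEN against KO ESC 34 of 37, 3 and 8. With the knockout line as a replicate block, members called higher and lower numbered 6 and 18, 20 and 18, and 25 and 14 in these comparisons. With line 5-3 alone, 8 members were higher in KO XEN than in WT XEN instead of 5. Leaving out each library in turn gave 3 to 5 there, 12 to 22 higher in KO XEN than in KO ESC, and 2511 to 4318 of all genes higher in KO XEN than in WT XEN, against 4115 with all libraries; the lowest came without WT XEN B. In KO XEN against KO ESC, leaving out each library moved the log2 fold change of Gstm1 between -1.63 and 0.72 and that of Gsta1 between 0.0 and 7.11, with the low ends without KO XEN 5-3 and the high ends without KO XEN C4. With 1 library left in a group, that library is assumed to vary like the others. Depth limits the low members: in the C4 library of KO XEN, with 13941826 counts, 1 read is worth 0.0726 CPM.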
